A study of Rattus norvegicus with 6 samples.

Results

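The family of miR-148 and miR-152 was examined in small RNA libraries from the liver of 3 Wistar rats with nonalcoholic fatty liver disease (NAFLD) and 3 normal Wistar rats. Its members are the mature 3p arms rno-miR-148a-3p, rno-miR-148b-3p and rno-miR-152-3p, which are 3 of the 675 mature rat miRNAs of the RefSeq table that can be told apart by their first 18 bases. A tag, that is a distinct read sequence with its number of reads, was given to a member when its first 18 bases were identical to those of the mature sequence. All 3 members had enough reads to be tested.

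The NAFLD rats were fasted for 48 h and then fed for 7 days on a diet of 80% starch, whereas the normal rats received a standard diet with 35% starch over those 7 days. All rats were male, aged 28 weeks by the study's methods and 4 months by the sample labels. The livers of the NAFLD group were taken from animals with higher hepatic triglycerides and those of the normal group at random, which limits the former as a picture of the whole diet group. Each library came from 1 liver, and the levels are those of whole tissue, where fewer cells of a type and less RNA per cell cannot be told apart.

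A miRNA pairs through its seed, the bases from position 2 to position 8, with sites in messenger RNAs and lowers their translation and stability. The members of a family share the seed and therefore many predicted targets. In the liver, miR-148a is known as a regulator of the transporter Abca1, which passes cholesterol to nascent high-density lipoprotein. The gene of miR-152 lies in Copz2 and that of miR-148b in Copz1, both of which encode zeta subunits of the coatomer coat of transport vesicles. The gene of miR-148a lies within no other gene of the RefSeq annotation.

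The mature sequences of RefSeq (build GRCr8) are shown because the members differ by only a few bases, on which the assignment of reads rests. The capitals mark the seed, which was the same in all 3, and no other mature miRNA of the table carried it.
rno-miR-148a-3p: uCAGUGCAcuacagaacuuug
rno-miR-148b-3p: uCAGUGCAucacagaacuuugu
rno-miR-152-3p: uCAGUGCAugacagaacuugg
They lie at chr4:81664447-81664467 on the minus strand, chr7:136299930-136299951 on the plus strand and chr10:82329435-82329455 on the plus strand, respectively. Counted from 1 at the 5′ end, miR-148a-3p and miR-148b-3p differ by C9U and U10C, miR-148a-3p and miR-152-3p by C9U, U10G and U20G, and miR-148b-3p and miR-152-3p by C10G and U20G. Position 20 lies outside the 18 bases used for the match. It can check the assignment between miR-152-3p and the other members, but not between miR-148a-3p and miR-148b-3p, which both have U there. Of the reads of at least 20 nt, 99.8% of those given to miR-148a-3p, 99.1% of those given to miR-148b-3p and 99.9% of those given to miR-152-3p had the member's own base at this position.

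The libraries held 11601058 to 11880695 clean reads, so that 1 read stands for about 0.085 TPM (reads per 1000000 clean reads). Before the members are compared, a division among the libraries has to be stated. In 3 libraries (NAFLD replicate 2, NAFLD replicate 3 and normal replicate 2), the median share of reads with 1 substitution in the first 18 bases over 37 abundant miRNAs was 28.2% to 29.4%, against 0.846% to 1.19% in NAFLD replicate 1 and normal replicates 1 and 3. These are called the high-rate and the low-rate libraries here. The share of miR-122-5p, the main miRNA of hepatocytes, was 44.5% to 46.5% of the clean reads in NAFLD livers and 56.1% to 59.6% in normal livers. Reads given to named miRNAs, miR-122-5p included, were 75.7% to 79.2% of clean reads in NAFLD and 85.7% to 91.3% in normal livers. The libraries held 413022 to 467746 different tags in NAFLD and 221610 to 264974 in normal livers. TPM by clean reads is thus a share of libraries that differed in make-up between the groups. The part of this difference in the levels was not tested.

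In the members themselves the same division by substitution rate was seen. Of the miR-148a-3p reads with at most 1 substitution, those with 1 were 2.34%, 31.5% and 31.8% in NAFLD replicates 1 to 3 and 1.72%, 31.1% and 1.46% in normal replicates 1 to 3. For miR-152-3p the shares were 0.965%, 27.9% and 29.3% in NAFLD livers and 0.876%, 29.4% and 0.684% in normal livers. For miR-148b-3p they were 2.33%, 32.8% and 27.8%, and 2.72%, 29.3% and 1.98%. The high-rate libraries were thus far above the others for each member, in both groups.

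The substituted bases were also alike between the members. In the high-rate libraries, A-to-C changes made up 85.0% of the 1964 miR-148a-3p reads with 1 substitution, 94.4% of the 71 miR-148b-3p reads and 87.8% of the 2771 miR-152-3p reads. The most frequent was A8C, at the last base of the seed. It was carried by 263, 393 and 252 miR-148a-3p reads and by 487, 557 and 314 miR-152-3p reads in the respective high-rate libraries (NAFLD 2, NAFLD 3 and normal 2), and by 0 reads of any member in the low-rate libraries. For miR-148a-3p, 0 of 175 reads with 1 substitution in the low-rate libraries had an A-to-C change, which allows a share of up to 1.71%. The A16C change came next, with 160, 191 and 132 reads of miR-148a-3p and 235, 245 and 150 reads of miR-152-3p in the high-rate libraries. An exact match therefore leaves out more reads of every member in these 3 libraries.

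**Figure D1:**
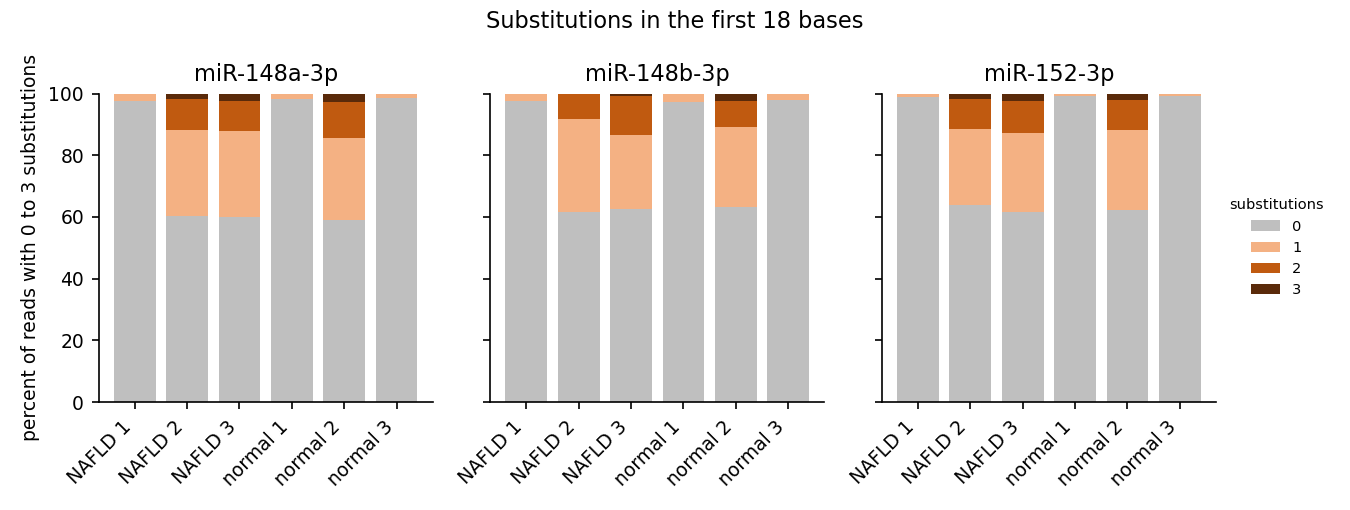
Percent of the reads of each member with 0, 1, 2 or 3 substitutions in the first 18 bases, by library, with 1 bar per library and 1 panel per member. The bars of the 3 high-rate libraries hold most of the substituted reads, such as 629 reads with 1 substitution beside 1371 exact reads of miR-148a-3p in NAFLD replicate 2, while the other bars are almost wholly exact matches.

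The level of the family was set by miR-152-3p and miR-148a-3p, with miR-148b-3p far below, and this order held in 6 of 6 libraries. By mean TPM the members ranked 27, 30 and 98 among the 365 miRNAs with reads. Reads of different miRNAs need not stand for equal numbers of molecules, so the order is one of reads.

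The level of miR-152-3p was 460, 221 and 234 TPM in NAFLD replicates 1 to 3 and 401, 126 and 391 TPM in normal replicates 1 to 3. NAFLD replicate 1 was the highest and normal replicate 2 the lowest, and the groups overlapped. The means were 305 ± 134 TPM in NAFLD livers and 306 ± 156 TPM in normal livers (SD, n = 3 each; two-sided exact permutation test, p = 1).

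For miR-148a-3p, the member best known from lipoprotein metabolism, the level was 244, 117 and 147 TPM in NAFLD livers and 265, 98.6 and 295 TPM in normal livers. Normal replicate 3 was the highest and normal replicate 2 the lowest, so that the normal libraries enclosed all NAFLD ones. The means were 169 ± 66.8 TPM and 220 ± 106 TPM (SD, n = 3 each; exact permutation test, p = 0.5).

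The reads of miR-148b-3p were few, 126, 45 and 70 in NAFLD livers and 143, 53 and 99 in normal livers. They correspond to 10.9, 3.83 and 5.93 TPM and to 12.1, 4.46 and 8.33 TPM, with overlap between the groups. The means were 6.87 ± 3.61 TPM and 8.29 ± 3.80 TPM (SD, n = 3 each; exact permutation test, p = 0.7). For the 45 reads of NAFLD replicate 2, the exact Poisson interval at 95% is 32.8 to 60.2 reads, and it covers counting error only. The counts of miR-148b-3p are thus the only ones of the family for which counting error is large beside the values.

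Across the 167 miRNAs tested with edgeR's quasi-likelihood test on reads scaled by the clean reads, the log2 fold change of NAFLD over normal was -0.38 (SE 0.50) for miR-148a-3p, -0.27 (SE 0.49) for miR-148b-3p and -0.0040 (SE 0.50) for miR-152-3p. The adjusted p of edgeR (Benjamini-Hochberg) was 0.986 for miR-148a-3p and miR-148b-3p and 0.995 for miR-152-3p, so 0 of the 3 members passed the threshold of 0.05. In this fit 0.599% of the miRNAs passed, namely miR-122-5p alone, with 456551 ± 10342 TPM in the NAFLD and 581611 ± 18436 TPM in normal livers (SD, n = 3 each) and a log2 fold change of -0.35 (SE 0.04; adjusted p of edgeR 0.000532). This call was lost with TMM factors and with up to 3 substitutions counted, where the smallest adjusted p of edgeR for any miRNA was 0.0652 and 0.0758. At an unadjusted p under 0.05, 1.80% of the miRNAs passed and again 0 members. The groups did not overlap in TPM for 4.19% of the miRNAs and for 0 members. The standard errors leave room for a change of any member in either direction, so these values do not show equal levels.

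Within each member, the levels were divided in the same way as the substitution rates. By exact match, the mean level in the high-rate libraries was 0.450 of that in the low-rate libraries for miR-148a-3p, 0.455 for miR-148b-3p and 0.464 for miR-152-3p. When reads with up to 3 substitutions were counted, an alternative chosen after the data were seen, these ratios became 0.738, 0.711 and 0.736. The level of miR-152-3p was then 464, 346 and 381 TPM in NAFLD livers and 404, 203 and 394 TPM in normal livers, and that of miR-148a-3p 250, 193 and 245 TPM and 270, 167 and 300 TPM. Normal replicate 2 still had the lowest value of both. The part of library preparation or sequencing in the remaining difference was not tested.

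**Figure D2:**
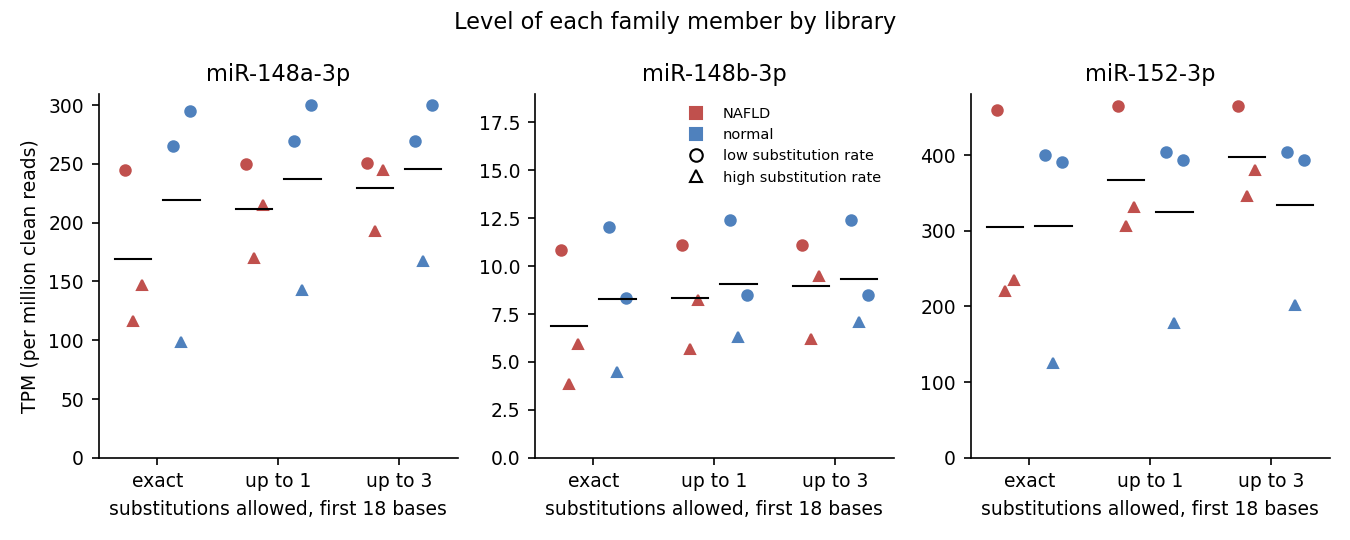
Level of each member in TPM by library, for exact matches of the first 18 bases and for up to 1 or up to 3 substitutions, with red for NAFLD, blue for normal, circles for low-rate and triangles for high-rate libraries, and a black line at each group mean. The triangles move up as substitutions are allowed, for instance from 98.6 to 167 TPM for miR-148a-3p in normal replicate 2, while the circles hardly move.

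Within the sets of libraries alike in substitution rate, the ratios of NAFLD over normal were higher for miR-152-3p than for miR-148a-3p. Reads of miR-152-3p per miR-148a-3p read did not overlap between the groups (given below). This order was thus fixed and is not a separate result. For miR-152-3p the log2 ratio of NAFLD over normal was 0.22 for NAFLD replicate 1 against normal replicates 1 and 3, and 0.86 for NAFLD replicates 2 and 3 against normal replicate 2. For miR-148a-3p the same ratios were -0.20 and 0.42, with opposite signs. For miR-148b-3p they were 0.09 and 0.13. With the set as a covariate in edgeR, the log2 fold change was 0.53 (SE 0.21) for miR-152-3p, 0.11 (SE 0.22) for miR-148a-3p and 0.11 (SE 0.33) for miR-148b-3p. The unadjusted p of miR-152-3p was 0.0232 and its adjusted p of edgeR 0.239, so it did not pass. In this fit 12.6% of all miRNAs were higher at an unadjusted p under 0.05 and the median of all was 0.24. Relative to this median, miR-152-3p was at 0.30 and miR-148a-3p at -0.13. miR-148b-3p was also at -0.13 relative to it. Both miR-148 members thus turned above 0 in this fit but stayed below the median of all miRNAs. With up to 3 substitutions counted and no covariate, the log2 fold change was -0.10 for miR-148a-3p, -0.06 for miR-148b-3p and 0.25 for miR-152-3p.

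**Figure D3:**
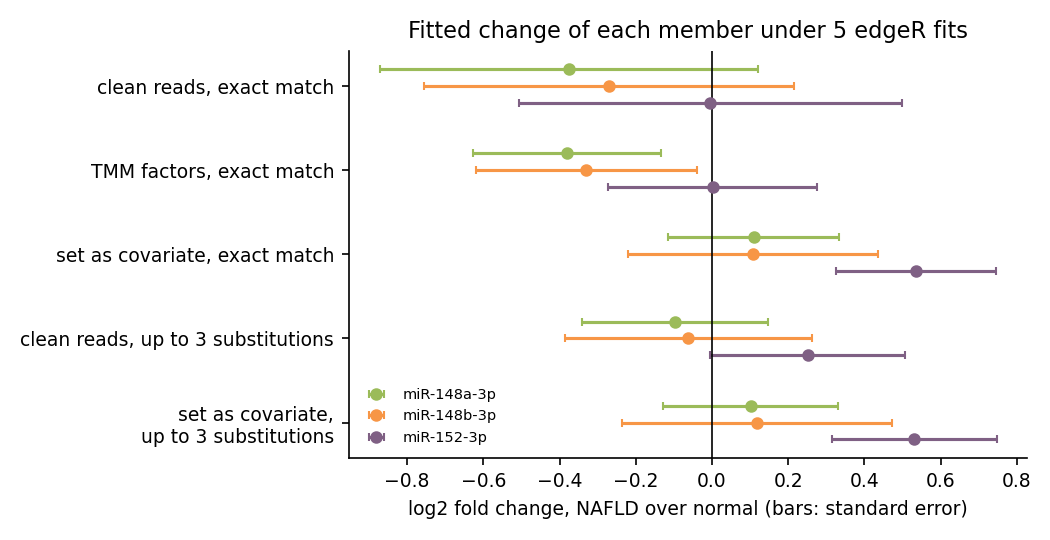
Log2 fold change of NAFLD over normal for each member in 5 edgeR fits, with bars of 1 standard error. The values of miR-152-3p lie to the right of those of miR-148a-3p in all 5, at -0.0040 against -0.38 by clean reads and at 0.53 against 0.11 with the set as covariate. All 5 fits use the same 6 libraries, so they are not separate evidence on this order.

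The share of miR-152-3p in the family and its ratio to miR-148a-3p did not overlap between the groups, but neither passed an adjusted p of 0.05. The same absence of overlap was found in 13.3% of the ratios of all pairs of abundant miRNAs. Both large members have the same bases at all of the first 18 positions but 9 and 10. The share of miR-152-3p among the family reads was 64.3%, 64.7% and 60.6% in NAFLD replicates 1 to 3 and 59.1%, 55.0% and 56.3% in normal replicates 1 to 3. The means were 63.2% ± 2.27 and 56.8% ± 2.14 (SD, n = 3 each), a difference of 6.39 percentage points (exact permutation test, two-sided, p = 0.1 and 0.167 after adjustment over the 5 measures of make-up; 3 libraries against 3 cannot give less than 0.1). All NAFLD libraries were above all normal ones, but the nearest pair was close. The Wilson interval at 95% was 59.1% to 62.0% in NAFLD replicate 3 and 58.1% to 60.2% in normal replicate 1, so these 2 libraries were not told apart by counting error alone.

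The share of miR-148a-3p was the mirror of this, with 34.2%, 34.2% and 37.9% in NAFLD livers and 39.1%, 43.1% and 42.5% in normal livers (35.4% ± 2.14 and 41.6% ± 2.17, SD, n = 3 each; exact permutation test, p = 0.1, adjusted 0.167). As both make up nearly all of the family, this is not a separate result. The share of miR-148b-3p was 1.52%, 1.12% and 1.53%, and 1.78%, 1.95% and 1.20%, with overlap between the groups (exact permutation test, p = 0.4, adjusted 0.5).

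Per read of miR-148a-3p there were 1.88, 1.89 and 1.60 reads of miR-152-3p in NAFLD livers and 1.51, 1.28 and 1.32 in normal livers. The means were 1.79 ± 0.166 and 1.37 ± 0.126 (SD, n = 3 each; exact permutation test, p = 0.1, adjusted 0.167). The difference was 0.463 within the low-rate libraries, 0.469 within the high-rate libraries and 0.419 over all. In the low-rate set, NAFLD replicate 1 was the only NAFLD library. In the high-rate set, normal replicate 2 was the only normal library. As the groups did not overlap in this ratio, the sign within each set was fixed and is not a separate result. With up to 3 substitutions counted, the ratios were 1.85, 1.79 and 1.56 against 1.50, 1.21 and 1.31, again without overlap. The pairs used as background were the 3741 that can be formed from the 87 miRNAs with a mean of at least 10 TPM and reads in every library. Of these, 36.0% had a larger difference of mean log2 ratio than the 0.38 of this pair.

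The ratio of miR-148a-3p to miR-148b-3p was 22.5, 30.5 and 24.8 in NAFLD livers and 21.9, 22.1 and 35.4 in normal livers. The groups overlapped (exact permutation test, p = 1), and normal replicate 3 was apart from the other normal libraries. The Wilson interval at 95% for the share of miR-148b-3p was 0.987% to 1.46% in normal replicate 3 and 1.51% to 2.09% in normal replicate 1.

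**Figure D4:**
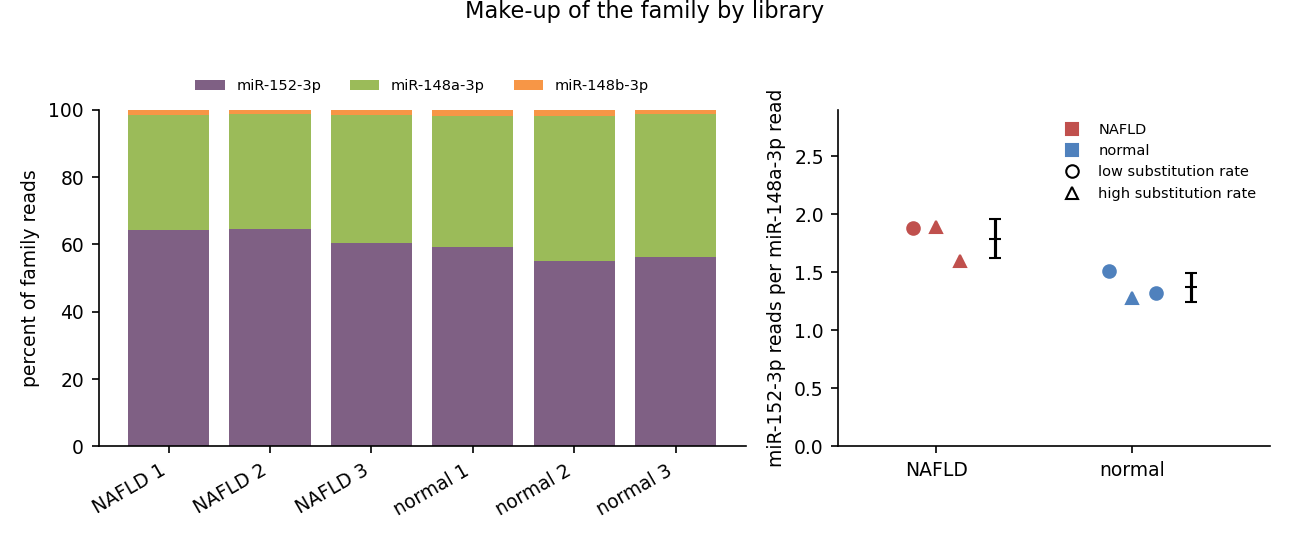
Left, percent of the family reads of each member in each library. Right, reads of miR-152-3p per read of miR-148a-3p by library, with mean and SD at the side of each group, colours by group and symbols by substitution rate. The NAFLD libraries lie at 1.60 to 1.89 and the normal libraries at 1.28 to 1.51.

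The 5′ end, which sets the seed, was nearly uniform. Tags that began 1 base before or after the mature start made up 0.0654% of the reads of miR-148a-3p, 0.186% of those of miR-148b-3p (1 read) and 0.0602% of those of miR-152-3p over all libraries. The 3′ end varied, and it varied differently in each member. In all, 70 different tags were given to miR-148a-3p, 24 to miR-148b-3p and 115 to miR-152-3p.

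The leading tags are shown since they define the 3′ forms, with capitals for bases past the mature sequence of the table.
miR-148a-3p, 22 nt: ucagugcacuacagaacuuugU
miR-148a-3p, 21 nt: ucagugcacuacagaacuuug
miR-148a-3p, 22 nt with A: ucagugcacuacagaacuuugA
miR-148a-3p, 23 nt: ucagugcacuacagaacuuugUU
miR-148b-3p, 22 nt: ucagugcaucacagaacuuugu
miR-148b-3p, 23 nt: ucagugcaucacagaacuuuguU
miR-148b-3p, 21 nt: ucagugcaucacagaacuuug
miR-152-3p, 21 nt: ucagugcaugacagaacuugg
miR-152-3p, 22 nt with U: ucagugcaugacagaacuuggU
miR-152-3p, 22 nt with G: ucagugcaugacagaacuuggG
miR-152-3p, 22 nt with A: ucagugcaugacagaacuuggA
The hairpins of 2 members, from RefSeq build GRCr8, show which further bases are encoded, with capitals for the mature arms of the table.
Mir148a, chr4:81664431-81664527, minus strand: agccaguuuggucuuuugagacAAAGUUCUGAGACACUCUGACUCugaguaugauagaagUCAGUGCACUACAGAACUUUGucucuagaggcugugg
Mir148b, chr7:136299870-136299966, plus strand: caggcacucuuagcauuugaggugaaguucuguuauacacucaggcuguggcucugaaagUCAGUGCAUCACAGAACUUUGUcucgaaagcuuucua

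In miR-148a-3p one form prevailed. The 22 nt tag that ends in the U next in the hairpin made up 81.7% of its reads, with 201, 94.3 and 120 TPM in NAFLD livers and 213, 77.4 and 246 TPM in normal livers. The sequence of 21 nt in the table was only 10.5% of the reads. The tag with an A in place of that U, which the hairpin does not encode, was 2.06%, and the tag with a second U was 1.72%. Over all tags, ends not matching the hairpin were 5.50%, 6.13% and 6.87% of the reads in NAFLD livers and 6.18%, 7.61% and 5.36% in normal livers, with overlap between the groups.

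In miR-148b-3p ends not encoded by the hairpin were far more common, at 27.0%, 40.0% and 28.6% of the reads in NAFLD livers and 37.1%, 35.8% and 24.2% in normal livers. The lowest of these, 24.2%, was above the highest share in miR-148a-3p, 7.61%. The most frequent kind was an end of U alone, with a mean of 17.9% ± 3.62 of the reads over 6 libraries (SD), against 2.22% ± 0.39 in miR-148a-3p. The 23 nt tag with 1 added U was 14.0% of the reads. The mature sequence itself was 55.0%, and tags shorter than it 9.31% ± 3.08 in NAFLD livers and 16.7% ± 4.95 in normal livers (SD, n = 3 each; exact permutation test, p = 0.2).

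In miR-152-3p the 21 nt mature sequence and longer tags were about equally frequent, with means of 49.5% ± 2.72 and 49.5% ± 2.54 of the reads over 6 libraries (SD). The mature sequence had 236, 111 and 116 TPM in NAFLD livers and 210, 56.0 and 191 TPM in normal livers. The added base was most often U, in a tag with 26.4% of the reads, and less often G or A, in tags with 5.21% and 4.41%. Whether these bases are encoded was not determined, since no hairpin of Mir152 was used here.

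**Figure D5:**
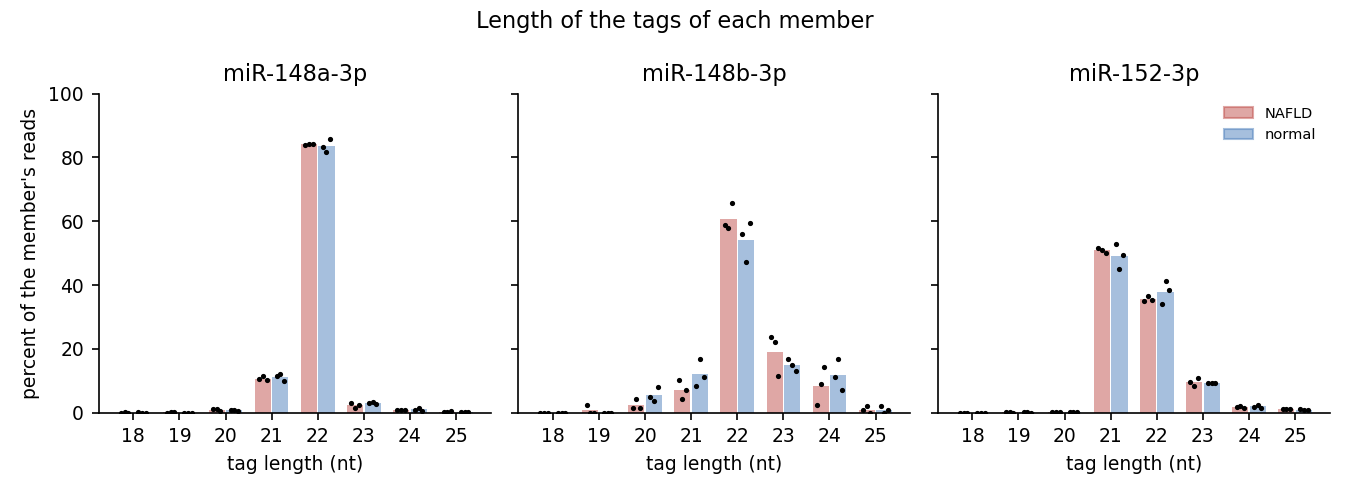
Percent of the reads of each member by tag length from 18 to 25 nt, with bars for the mean of 3 libraries and points for single libraries, red for NAFLD and blue for normal. The peak is at 22 nt in miR-148a-3p and miR-148b-3p and at 21 nt in miR-152-3p in both groups.

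Between NAFLD and normal livers, the groups overlapped in all 12 shares of 3′ forms compared (4 for each member), with exact permutation p from 0.2 to 1 and an adjusted p of 0.933 or 1. The share of miR-152-3p equal to the mature sequence was 51.2%, 50.4% and 49.6% in NAFLD livers and 52.3%, 44.5% and 48.8% in normal livers, where normal replicate 2 stood lowest. The mean tag length was 21.9 nt, 22.2 nt and 21.7 nt for miR-148a-3p, miR-148b-3p and miR-152-3p, with an SD over the 6 libraries of 0.0234, 0.123 and 0.0326 nt. Of 30 finer classes by tail or length, 2 (6.67%) did not overlap: unmatched ends of miR-148a-3p other than A or U alone, with means of 1.40% in NAFLD and 0.857% in normal libraries, and tags of 25 nt of miR-152-3p, with 1.22% and 0.949% (exact permutation p = 0.1 for both, not adjusted). Both were singled out after their values were seen. The unmatched ends were 0.917%, 1.39% and 1.90% in NAFLD replicates 1 to 3 and 0.860%, 0.855% and 0.855% in normal replicates 1 to 3. Their difference was 0.059 points within the low-rate and 0.790 points within the high-rate libraries. For the tags of 25 nt, the nearest libraries were NAFLD replicate 1 at 1.162% and normal replicate 1 at 1.158%.

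The passenger arms were scarce. rno-miR-148a-5p had 14, 7 and 12 reads in NAFLD livers and 12, 9 and 12 in normal livers, which is 0.595 to 1.21 TPM, with overlap between the groups (exact permutation test, p = 0.8). Per read of this arm there were 203, 196 and 144 reads of miR-148a-3p in NAFLD livers and 262, 130 and 292 in normal livers (exact permutation test, p = 0.5). rno-miR-152-5p had 1 read in NAFLD replicate 1 and 1 in normal replicate 3 and 0 in the other libraries, where a count of 0 allows up to 0.253 to 0.255 TPM. The other arm of miR-148b, rno-miR-148b-5p, was not analysed here.

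Other miRNAs known to act on cholesterol and lipoprotein genes were set beside the family. Of a list of 16, miR-27a-3p and miR-27b-3p share their first 18 bases and were counted as 1, and 13 of the resulting 15 were tested. In edgeR 0 of the 13 were higher and 1 was lower at an adjusted p of 0.05, namely miR-122-5p, whose values and limits are given above. It was also the only 1 called among all 167 miRNAs tested, a share of 0.599%. The fitted change was above 0 in 7 and below 0 in 6 of the 13, with a median log2 fold change of 0.02, the same to 2 decimals as the median over all 167 miRNAs. miR-33-5p, encoded within the sterol regulator gene Srebf2 and a repressor of Abca1 like miR-148a, had 86.2, 46.8 and 42.8 TPM in NAFLD livers and 117, 46.6 and 130 TPM in normal livers. It was low in the same 3 high-rate libraries as the family. miR-378a-3p, encoded in an intron of Ppargc1b, had 1319, 833 and 1331 TPM and 839, 469 and 1069 TPM, with overlap.

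Markers of the cell types of the liver bear on a family that is read from whole tissue. Of the 3 hepatocyte miRNAs, miR-122-5p was lower in NAFLD livers with the limits given above. By contrast, miR-192-5p had 28269, 15345 and 15925 TPM in NAFLD livers and 21523, 11116 and 25426 TPM in normal livers, with overlap. miR-194-5p had 618, 293 and 269 TPM in NAFLD livers and 494, 223 and 494 TPM in normal livers, also with overlap. The fitted log2 fold change was 0.04 for miR-192-5p and -0.04 for miR-194-5p. The summed level of the 5 smooth muscle and stellate cell miRNAs was 532 to 665 TPM in NAFLD livers and 342 to 593 TPM in normal livers. That of the red blood cell list was 24.0 to 67.0 and 26.3 to 42.9 TPM, that of the endothelium list 23.5 to 48.4 and 14.7 to 41.1 TPM, and that of the white blood cell list 7.23 to 14.6 and 3.71 to 13.0 TPM. The ranges of these 4 lists overlapped. The summed level of the hepatocyte list, most of it miR-122-5p, was 473951 to 481313 TPM in NAFLD livers and 582734 to 621503 TPM in normal livers, without overlap. In edgeR 0 of the markers other than miR-122-5p passed the adjusted threshold. Within the smooth muscle and stellate list, miR-199a-3p had 439, 400 and 430 TPM in NAFLD livers and 294, 210 and 384 TPM in normal livers, without overlap (adjusted p of edgeR 0.986). In the same list, miR-145-5p had 15.9, 6.89 and 21.8 TPM in NAFLD livers and 84.6, 11.4 and 13.2 TPM in normal livers, and miR-143-3p had means of 151 ± 45.4 and 167 ± 42.6 TPM (SD, n = 3 each), both with overlap and with fitted log2 fold changes below 0, of -1.29 and -0.14. The rest of this list, miR-199a-5p and miR-214-3p, overlapped between the groups and had fitted log2 fold changes above 0, of 0.40 and 0.38. miR-199a-3p, miR-145-5p and miR-143-3p were singled out after their values were seen. No marker of these lists that the table holds was at 0 reads in any library, but miR-142-3p was at 1 to 4 reads and was not tested. Their part in the levels and the make-up of the family was not tested.

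The miRNAs with the pattern most like each member over the 6 libraries were found by the root mean square distance of log2(TPM + 1), each centred on its own mean. For miR-152-3p they were miR-322-3p at 0.07, miR-126a-5p at 0.09 and miR-26b-5p at 0.14, where the median of 86 miRNAs was 0.40. For miR-148a-3p they were miR-3559-5p at 0.12, miR-497-5p at 0.12 and miR-26b-5p at 0.14, with the same median of 0.40. For miR-148b-3p they were miR-26a-5p at 0.11, miR-22-3p at 0.13 and miR-30c-5p at 0.14, with a median of 0.35 over 87 miRNAs. miR-152-3p and miR-148a-3p were farther from each other, at 0.22, than either was from these. Every one of the 8 miRNAs named here had a lower TPM in each high-rate library than in any low-rate library, as the family did. The likeness thus includes the division by substitution rate. As these miRNAs were chosen for likeness to members with this division, the count is not a separate result. The share of all compared miRNAs with the same division was not counted.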

How the data were processed

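Small RNA of 18 to 30 nt from 6 rat livers was sequenced, and per the labels each library is 1 animal. The authors deposited, for each library, a table of tags with their counts after removal of adaptors and low-quality reads. The counts of each table summed to the clean reads in the deposited processing log. Copies of the same tags in another layout were not used. The submitters' processing notes name the rat build Rnor 5.0 (rn 5); no coordinates were taken from it. Tags were matched here by their first 18 bases to the mature miRNAs of RefSeq (GRCr8), summed, and divided by clean reads to give TPM.

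Counts were filtered with filterByExpr and tested with the quasi-likelihood method of edgeR 4.0.16 in R 4.3.3, scaled by clean reads, with Benjamini-Hochberg adjustment. The procedure was tested on simulated data without the division by substitution rate, so this does not show how the fit behaves with it. Single values were compared with two-sided exact permutation tests (scipy 1.17.1). P-values set a group difference against the spread between these libraries. Without the set as covariate, this spread includes the division by substitution rate. The alternatives included DESeq2 1.42.0, limma 3.58.1, TMM, 20 matched bases, 1 substitution, no filter, a replicate block and leaving out each library. Equal replicate numbers did not pair the libraries. The named miRNAs were the members, their 5p arms, those passing the adjusted threshold, the lists with examples, and the 3 nearest patterns per member. miR-192-5p, miR-33-5p and miR-378a-3p were picked as examples after their values were seen. The members and lists were chosen with earlier results of these data known.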

Additional observations from a re-analysis of the deposited data

How the results depend on the processing

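Over 17 alternatives set before and 3 added after the data were seen, 0 members passed an adjusted p of 0.05; the adjusted p ranged from 0.708 to 1.00 for miR-148a-3p, 0.795 to 1.00 for miR-148b-3p and 0.20 to 1.00 for miR-152-3p. The log2 fold change of miR-152-3p, -0.0040 as reported, turned above 0 with TMM (0.0014), DESeq2 (0.045), limma with a pseudocount of 1 (0.0895) or 0.1 TPM (0.0904), the replicate block (0.0925; -0.29 for the other members, with 1 miRNA called), the set covariate (0.53), 1 substitution (0.17), up to 3 (0.25), up to 3 with covariate (0.53) and up to 3 with TMM (0.11). miR-148a-3p turned to 0.11 with the covariate and 0.10 with covariate and up to 3 substitutions, and miR-148b-3p to 0.11 and 0.12. Leaving out 1 library gave -0.74 to -0.10 for miR-148a-3p, -0.76 to 0.10 for miR-148b-3p and -0.43 to 0.24 for miR-152-3p. The only call of edgeR, miR-122-5p, was lost and the number of miRNAs called became 0 with TMM (12 at an unadjusted p under 0.05), up to 3 substitutions (23), both (22) or all 18-base starts (998 of 10516), and was 1 to 2 when 1 library was left out (2 without NAFLD replicate 1). The difference in miR-152-3p per miR-148a-3p read was 0.369 to 0.515 and that in the share of miR-152-3p 5.47 to 7.69 points over the 10 alternatives run for them. As the groups did not overlap in these measures, leaving out 1 library could not change the sign. The replicate block gives the same difference by construction. The remaining alternatives changed only the matching rule and used most of the same reads. When 1 library was left out, the difference in miR-148a-3p per miR-148b-3p read was -2.86 to 3.90. The group differences in 3′ forms, in percentage points, were then -0.729 to 0.395 (unmatched) and -0.494 to 2.04 (longer) for miR-148a-3p, -4.61 to 1.90 (unmatched) and 0 to 1.19 (longer) for miR-148b-3p, and -0.189 to 3.71 (equal), -3.55 to 0.102 (longer), -0.141 to 0.0203 (other end) and -0.104 to 0.0669 (shorter) for miR-152-3p. With tags of at least 10 reads, the longer form of miR-148b-3p was 0 and the other end of miR-152-3p 0.123, and with 1 substitution its shorter form was 0.0148. The cause of these changes was not tested. Libraries with the same replicate number deviated from their group means with r = 0.15, 0.34 and -0.54, so the paired fit rests on numbers only. The counts of miR-148b-3p, 45 to 143 reads a library, limit the precision of its forms.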

Other observations

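The substitutions of miR-148a-3p other than A8C and A16C included A15C, A13C, G6T and C17T. A15C had 59, 86 and 58 reads and A13C 26, 21 and 11 in the high-rate libraries (NAFLD 2, NAFLD 3 and normal 2). In the low-rate libraries, A-to-C changes of miR-148a-3p were at 0 reads. There C17T was carried by 25, 17 and 20 reads of miR-148a-3p, in NAFLD replicate 1 and normal replicates 1 and 3. In NAFLD replicates 2 and 3 it was carried by 11 and 8 reads, and in normal replicate 2 by 4. The exact reads of miR-148a-3p were 2835, 3138 and 3508 in the low-rate libraries and 1371, 1733 and 1170 in the high-rate ones. The C17T counts are thus not rates and do not set the 2 kinds of libraries apart by themselves. G6T, which is not an A-to-C change, had higher counts in the high-rate libraries. Its miR-148a-3p counts were 59, 63 and 33 there, against 3, 2 and 2 in the low-rate ones. For miR-152-3p the G6T counts were 62, 110 and 36 against 2, 1 and 1. The division was thus not limited to A-to-C changes. A15C, A13C, C17T and G6T were chosen after their values were seen, and their origin was not tested.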
